A study of Mus musculus with 6 samples.

Results

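The cytosolic glutathione S-transferases of mouse liver were followed here through 10 genes: Gsta2, Gsta3 and Gsta4 of the alpha class, Gstm1, Gstm2, Gstm3, Gstm4 and Gstm6 of the mu class, Gstp1 of the pi class and Gstt1 of the theta class. Their probes were those that carry one of these 10 gene names on all 6 arrays, which gave 13 probes of the 41174 non-control probes and 10 of the 27962 gene names on the array. Gsta3, Gstm1 and Gstp1 were each measured by 2 probes, of which the brighter stands for the gene and the other is called the second probe. The RefSeq accession of every one of the 13 probes belonged to the gene named.

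Male 129/Sv mice, 6 to 8 weeks old at the start, received a liquid diet with 4% ethanol or an isocaloric control diet in which maltose dextran replaced the alcohol. After 1, 2 or 4 months, liver RNA of 6 mice per diet was combined into 1 pool, and the alcohol pool and control pool of a month were hybridized together on 2 two-color arrays with exchanged dyes. Pooling left no animal to animal spread within a month, so the SD of 2 arrays given below is technical and the 3 months were the only replicates for a test.

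Glutathione S-transferases join the tripeptide glutathione to electrophilic molecules, which makes them more water soluble and prepares them for export from the cell. The cytosolic enzymes are dimers that are grouped into classes by sequence, and hepatocytes hold large amounts of them, where they act on drugs, carcinogens and aldehydes formed by lipid peroxidation. Several of the genes are known targets of the transcription factor NRF2, which binds the antioxidant response element, and of the nuclear receptors CAR and PXR.

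Promoter sequences are shown for the gene raised in every month (Gsta2), the gene lowered at 1 month (Gstp1) and the gene that holds the core of the antioxidant response element (Gsta3). They are stretches of 150 bases from RefSeq on the GRCm38.p6 assembly, written 5′ to 3′ on the strand of the gene. The Gsta2 stretch is chr9:78347193-78347342 on the minus strand, from 197 to 48 bases before the transcription start. The Gsta3 stretch is chr1:21240435-21240584 on the plus strand and the Gstp1 stretch is chr19:4037913-4038062 on the minus strand, both from 150 bases to 1 base before the start. Capitals mark TGACNNNGC, the core of the antioxidant response element, or the spelling TGAGNNNGC, which was added after the values were seen, on either strand.
Gsta2: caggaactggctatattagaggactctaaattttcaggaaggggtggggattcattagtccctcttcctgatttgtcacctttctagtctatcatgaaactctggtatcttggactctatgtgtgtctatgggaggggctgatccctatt
Gsta3: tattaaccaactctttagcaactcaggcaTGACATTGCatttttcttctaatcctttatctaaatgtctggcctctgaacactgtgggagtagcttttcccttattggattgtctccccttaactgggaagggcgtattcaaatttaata
Gstp1: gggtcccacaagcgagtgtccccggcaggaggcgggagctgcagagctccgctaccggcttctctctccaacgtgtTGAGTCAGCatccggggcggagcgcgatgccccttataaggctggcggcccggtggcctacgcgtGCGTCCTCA

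Of the 10 genes, 9 had a promoter entry, a window from 250 bases before to 50 bases after the start. TGACNNNGC was found in 1 of the 9, in Gsta3, where TGACATTGC begins 121 bases before the start, and it was found in 14.0% of all 27025 genes with an entry (12.4% of 32851 windows). TGAGNNNGC was found in 2 of the 9, Gstp1 and Gstt1, and in 19.8% of all genes (17.6% of windows). In Gstp1 the letters TGAGTCAGC begin 74 bases before the start and hold TGAGTCA, a binding sequence of AP-1. Gsta2, which had the largest ratio at 1 month, held neither spelling in this window. These matches describe the letters only.

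All 13 probes were well above background in 12 of 12 channels and none was saturated, while 73.1% to 90.3% of all probes were well above background per channel. Tests covered 37922 probes, each of them distinguishable from background in 1 or more channels by the scanner's own criterion. The 1-month arrays lay on 1 slide and the 2-month and 4-month arrays on another, so slide and 1 month against the later months cannot be told apart. The probe sequences were not used here, and members of a class are alike in sequence: Gstm6, Gstm3, Gstm2, Gstm1 and Gstm4 follow each other on chromosome 3, Gstp1 lies beside Gstp2 and Gstt1 beside Gstt3. How far a probe also reports a neighbour is therefore uncertain.

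Gsta2 was higher in the alcohol pool at all 3 months, Gstm4 stood out at 4 months, and Gstp1 was lower in the alcohol pool at 1 month. A probe was called raised or lowered when its alcohol over control ratio, averaged over the 2 arrays of a month, reached 1.5-fold (0.58 on the log2 scale) with the same direction on both arrays. At 1 month 1 of 13 probes was raised, against 0.564% of all probes tested, and 2 of 13 were lowered, against 0.63%. At 2 months 1 probe was raised (1.17% of all) and 0 were lowered (1.31% of all). At 4 months 2 probes were raised (2.04% of all) and 0 were lowered (1.46% of all). These are counts without a test.

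Most other members had small positive ratios. The median log2 ratio of the 13 probes was 0.27, 0.20 and 0.26 at 1, 2 and 4 months, where the median of all probes tested was 0, 0.0087 and -0.0088. The alcohol pool had the higher mean level at all 3 months for 8 of 13 probes, against 14.3% of all probes tested. On all 6 arrays the ratio was above 0 for 4 of 13 probes, those of Gsta2, Gsta4, Gstm2 and Gstm4, against 1.49% of all probes. It was below 0 for 0 of 13, against 2.38%. For Gstm2 and Gsta4 the lowest of the 6 log2 ratios was nearly 0 (0.0073 and 0.013). The hepatocyte markers summed to 177 and 178 in the alcohol and control pool at 2 months and to 110.5 and 98.3 at 4 months (134 and 130, and 89.2 and 76.1, without Apoa1, which was saturated in 1 channel), and their part in these ratios was not tested. In bulk liver, fewer cells of a type and less RNA per cell cannot be told apart.

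**Figure D1:**
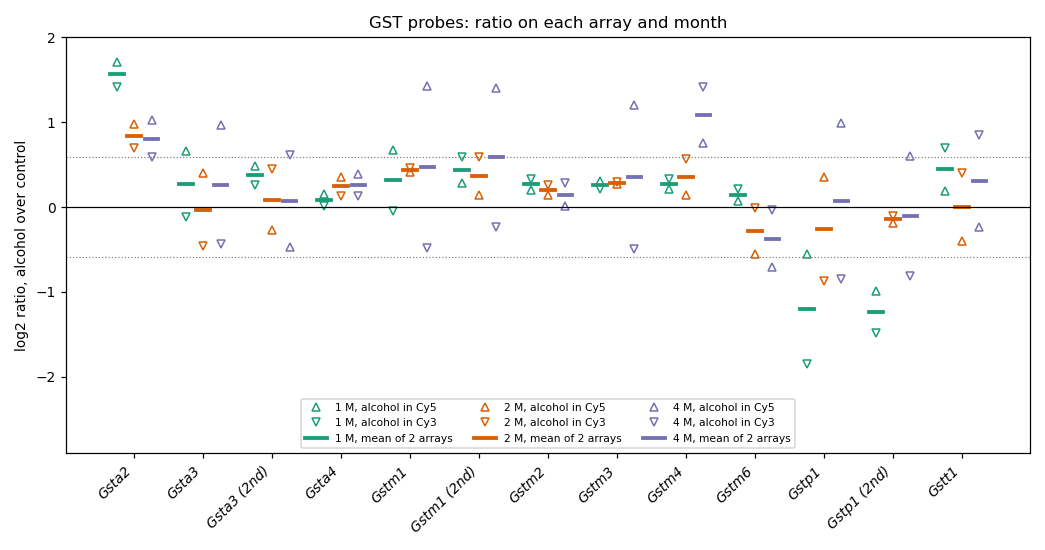
Log2 ratio of alcohol over control (vertical axis) of the 13 probes (horizontal axis, "2nd" for the second probe of a gene) at 1, 2 and 4 months (1 M, 2 M, 4 M). Open triangles are the 2 arrays of a month, bars their mean and dotted lines 1.5-fold; Gsta2 lies above the upper line at every month and both Gstp1 probes have 1-month means near -1.2.

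Gsta2, an alpha class enzyme that also acts on organic hydroperoxides, had the largest ratios at 1 month. With alcohol in Cy5 and in Cy3 respectively, its log2 ratio was 1.71 and 1.41 at 1 month. The 2-month arrays gave 0.98 and 0.70, and those of 4 months gave 1.02 and 0.59. Every array lay above 0 and each monthly mean exceeded its SD of 2 arrays. The means were 1.56 ± 0.21 (SD, n = 2 arrays), 0.84 ± 0.20 and 0.81 ± 0.31, which are 2.95-fold, 1.79-fold and 1.75-fold.

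Levels of Gsta2 were higher in the alcohol pool on each dye. A level is given as log2 of the processed signal relative to the 75th percentile of its channel, averaged over the 2 arrays. From the earliest to the latest month the alcohol pools stood at -0.01, -2.00 and -1.76, whereas those of the control diet stood at -1.57, -2.83 and -2.56. The alcohol channels lay above the control channels within each month, without overlap. The alcohol pool at 1 month was the highest of the 6 pools under each of the 3 scalings tried, while the order of the 1-month control pool (-1.57) and the 2-month alcohol pool (-2.00) turned with scaling to the channel median, which gave 0.14 and 0.24.

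The Gsta2 effect over the 3 months was 1.07 (SE 0.169) by limma, higher in 3 of 3 months, with an unadjusted p of 0.00169 and a Benjamini-Hochberg adjusted p of 0.599 over all probes. It did not pass the threshold of 0.05. Its slope on the log2 of the month was -0.38 (SE 0.126), with a limma adjusted p of 0.663. Blood RNA differed most in the month in which Gsta2 was most raised. The 3 measured blood markers summed to 86.9 in the alcohol pool and 27.5 in the control pool at 1 month, in multiples of the 75th percentile, with 2 of 3 raised. At 2 months their sums were 52.0 and 58.7, with 1 of 3 lowered, and at 4 months 43.5 and 31.0, with 2 raised and 1 lowered. The part of blood RNA in the Gsta2 ratio was not tested.

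Gsta2 had the widest range of level among the 13 probes, 2.82 on the log2 scale. Over the 6 pool levels, the probes most like it among 27900 that were well above background in every channel were those of Acp2 (Pearson r 0.987), Cd36 (0.984) and Cyp2b9 (0.984). Of the other members, Gstt1 came closest (r 0.93), followed by Gsta3 (0.67 for the brighter and 0.27 for the second probe). Gstm4 (0.66) and Gstm6 (0.61) came next, and Gsta4 was the least alike (-0.58). The 6 pools share slides and dye pairs, and these r values are descriptions.

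Gsta3 conjugates the epoxide of aflatoxin in mouse liver. Its log2 ratio, with the array that carried alcohol in Cy5 first, was 0.66 and -0.11 after 1 month, 0.40 and -0.46 after 2 and 0.97 and -0.44 after 4. The first array was the higher of the pair each time, and the sign differed within every pair. Its second probe gave 0.49 and 0.26, then -0.27 and 0.44, then -0.47 and 0.61, so that at 2 and 4 months the order of its 2 arrays was the reverse. Monthly means of 0.28, -0.03 and 0.26 for the brighter probe and 0.37, 0.09 and 0.07 for the second were no larger than their SD of 2 arrays, except the second probe at 1 month (SD 0.16).

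Gsta4, which conjugates the lipid peroxidation aldehyde 4-hydroxynonenal, was measured by 10 spots per array, the most of any member. Its mean log2 ratio over these spots was 0.15 and 0.01 after 1 month, then 0.36 and 0.13, and lastly 0.38 and 0.12. All 6 values were above 0, with an SD over the 10 spots between 0.037 and 0.13. The monthly means were 0.08 ± 0.09, 0.24 ± 0.16 and 0.25 ± 0.18 (SD, n = 2 arrays), at most 1.19-fold.

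Of the 5 mu class members, only Gstm4 was called raised. Its log2 ratio was 0.22 and 0.33 at 1 month and 0.14 and 0.57 at 2 months. At 4 months it was 0.75 and 1.42, above both earlier pairs. The means were 0.27 ± 0.08 (SD, n = 2 arrays), 0.36 ± 0.30 and 1.08 ± 0.47, the last being 2.12-fold. On the slide of the later months its level went from 1.08 to 2.28 in the alcohol pools and from 0.73 to 1.20 in the control pools between 2 and 4 months. Alcohol channels lay above control channels in each month.

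By limma the Gstm4 effect was 0.57 (SE 0.175, adjusted p = 0.621), higher in 3 of 3 months, and 0.32 without the 4-month arrays. Its slope on the log2 of the month was 0.40 (SE 0.121), with an unadjusted p of 0.0271 and an adjusted p of 0.657. The 4-month alcohol pool also held more RNA of pancreas acinar markers, which summed to 36.3 against 29.3 in the control pool with 4 of 13 raised, while at 1 and 2 months 0 of 13 were raised (22.3 against 23.4 and 28.1 against 28.0). Whether this had a part in the Gstm4 ratio was not tested.

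None of the other 4 mu class members was called, and at 4 months the signs of Gstm1 and Gstm3 differed between the 2 arrays. Gstm1, a main mu class subunit of mouse liver, had log2 ratios of 0.67 and -0.04, 0.41 and 0.46, and 1.43 and -0.48 at 1, 2 and 4 months. Its second probe gave 0.28 and 0.59, 0.14 and 0.59, and 1.41 and -0.24. Both probes thus agreed in their monthly means (0.31, 0.43 and 0.47, and 0.44, 0.36 and 0.58) and in the split between the arrays at 4 months, where the SD of 2 arrays was 1.35 and 1.16. Gstm3 was near 0.3 on each array at 1 and 2 months (0.31, 0.21, 0.28 and 0.30) and then gave 1.20 and -0.49.

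Gstm2 and Gstm6 went different ways. Gstm2 was above 0 on every array, with means of 0.27 ± 0.09, 0.20 ± 0.08 and 0.15 ± 0.19 (SD, n = 2 arrays). At 4 months its 2 arrays gave 0.0073 and 0.28. Gstm6 began at 0.08 and 0.22 after 1 month, gave -0.55 and -0.01 after 2 and ended at -0.71 and -0.04. Among the mu class members it was the only one with negative means, -0.28 ± 0.39 and -0.38 ± 0.47, which were smaller than their SD. Its slope on the log2 of the month was -0.26 (SE 0.092), with a limma adjusted p of 0.675.

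Gstp1, the pi class enzyme, was the only member called lowered, and by both of its probes. At 1 month the log2 ratio of the brighter probe was -0.56 and -1.84 and that of the second probe -0.99 and -1.48. The means were -1.20 ± 0.91 and -1.23 ± 0.35 (SD, n = 2 arrays), or 0.435 and 0.425 of the control pool. At 2 months the brighter probe gave 0.35 and -0.87 and the second -0.19 and -0.10, and at 4 months they gave 0.99 and -0.85, and 0.60 and -0.82. The later means were -0.26 and 0.07 for the brighter probe and -0.14 and -0.11 for the second. After 1 month, the second probe at 2 months was the only case in which both arrays of a pair lay on the same side of 0.

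The level of Gstp1 was highest in the 1-month control pool. With months in order, the brighter probe stood at 6.04, 5.21 and 4.38 on the control diet and at 4.84, 4.95 and 4.45 on alcohol. For the second probe the control pools were at 5.32, 5.07 and 4.12 and the alcohol pools at 4.09, 4.92 and 4.01. For the brighter probe the 1-month control pool was the highest of the 6 under each scaling tried. For the second probe it was the highest except with scaling to the channel median, where the 2-month control pool was at 7.31 and the 1-month control pool at 7.03.

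By limma the slope of Gstp1 on the log2 of the month was 0.64 (SE 0.117), with an unadjusted p of 0.00502 and an adjusted p of 0.633. For the second probe it was 0.56 (SE 0.169, limma adjusted p = 0.657). The effect over the 3 months was -0.46 and -0.50 for the brighter and second probe, and -0.095 and -0.13 without the 1-month arrays, so it rested on that month. The direction for the brighter probe also differed between the dye orientations, being 0.26 over the arrays with alcohol in Cy5 and -1.19 over those with alcohol in Cy3. Beside blood, markers of 1 or more other cells were called at 1 month. Those of macrophages had sums of 17.6 and 16.2 in the alcohol and control pool (1 of 6 raised) and those of endothelium 3.32 and 2.57 (1 of 4 raised). Markers of stellate cells summed to 13.1 and 12.5 and those of pancreas acinar cells to 22.3 and 23.4, with 0 of 5 and 0 of 13 called. Markers of bile duct cells summed to 32.3 and 32.2, with 0 of 7 called. The 6 measured hepatocyte markers were well above background in all channels and summed to 185 and 204. Without Apoa1, the only one of them saturated in a channel, a choice made after the values were seen, the other 5 summed to 135 and 128. Apoa1 had opposite signs by dye (0.26 and -1.47), as had Fgb (0.37 and -0.52) and Trf (-0.18 and 0.19), which were kept. The part of these cells in the Gstp1 ratio was not tested.

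Gstt1, a theta class enzyme that acts on small halogenated compounds, gave log2 ratios of 0.19 and 0.69 after 1 month, -0.41 and 0.40 after 2 and -0.24 and 0.85 after 4. Carrying alcohol in Cy3 gave the higher value of each pair, the reverse of the brighter Gsta3 probe. The means were 0.44 ± 0.35, -0.01 ± 0.57 and 0.31 ± 0.77 (SD, n = 2 arrays). Only the 1-month mean exceeded its SD.

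**Figure D2:**
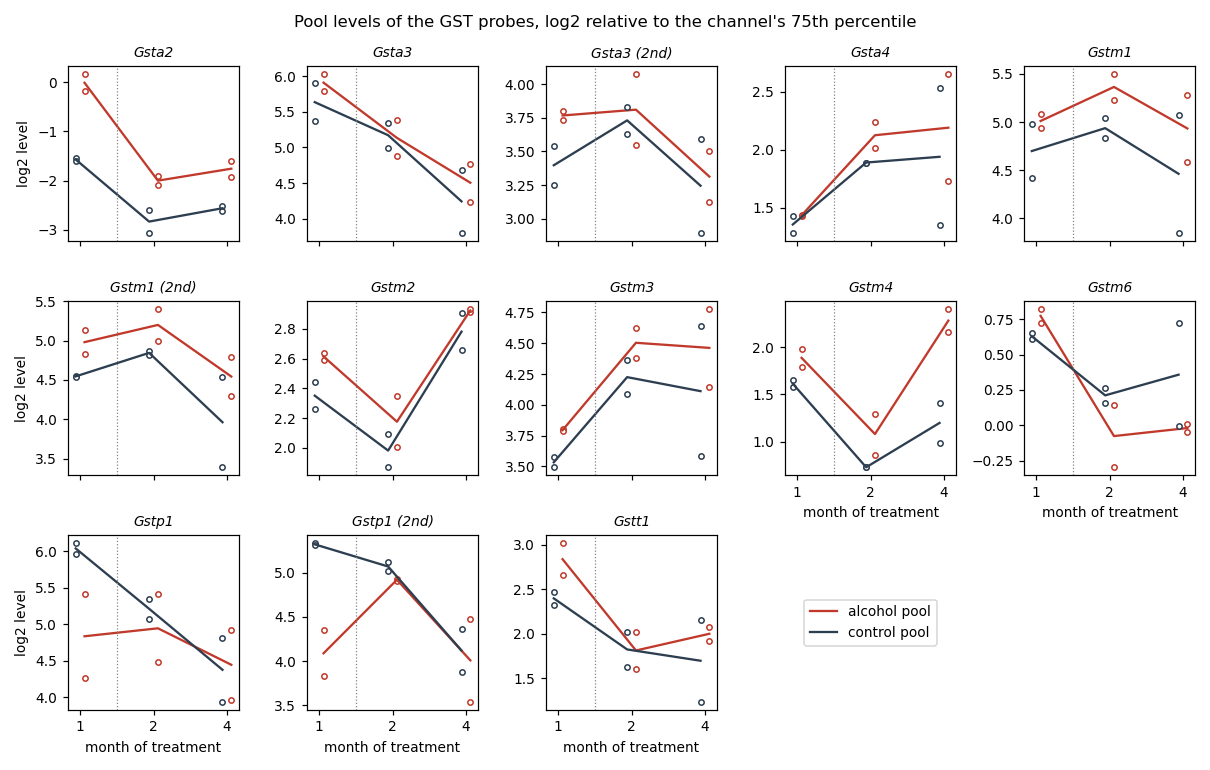
Level of each probe (vertical axis, log2 relative to the 75th percentile of the channel) in the alcohol and control pools at 1, 2 and 4 months (horizontal axis). Open circles are the 2 channels of a pool, lines join their means and the dotted line separates the 2 slides; Gsta2 has the widest range (2.82) and Gstp1 its highest level in the 1-month control pool (6.04).

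Over the 13 probes, 0 passed limma's test of the effect after Benjamini-Hochberg adjustment, as did 0% of all 37922 probes, whose smallest adjusted p was 0.106. At an unadjusted p under 0.05 there were 7 of 13 probes, beside 3027 of all 37922. The 7 were those of Gsta2, Gsta4, Gstm2, Gstm3 and Gstm4 and both of Gstm1. Each pair entered the test as its mean, so disagreement between its 2 arrays is not in these p-values. The mean over the arrays with alcohol in Cy3 was -0.022 for the brighter Gstm1 probe, 0.31 for its second and 0.0053 for Gstm3. The limma test of the slope also called 0 of 13 and 0% of all probes, with 5 of 13 and 2793 of all 37922 at an unadjusted p under 0.05. The 5 were Gsta2 and Gstm6, with negative slopes, and Gstm4 and both Gstp1 probes, with positive slopes. With 3 monthly values the tests had 2 and 1 residual degrees of freedom before moderation. On simulated data the slope test recovered 0% of slopes of 1 or of 2, so its counts of 0 do not show that slopes were absent.

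The 2 arrays of a pair often differed. With 1 array per dye orientation and month, a dye effect and other differences between arrays cannot be told apart. The 2 arrays of a month had opposite signs for 2, 4 and 8 of the 13 probes at 1, 2 and 4 months, and for 48.2%, 62.0% and 65.7% of all probes. The deviation of each array of a pair from their mean had a median size of 0.15, 0.21 and 0.54 over the 13 probes and 0.096, 0.18 and 0.22 over all probes. The median size of the averaged log2 ratio of the 13 probes was 0.31, 0.26 and 0.31, so at 4 months the deviation was the larger.

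**Figure D3:**
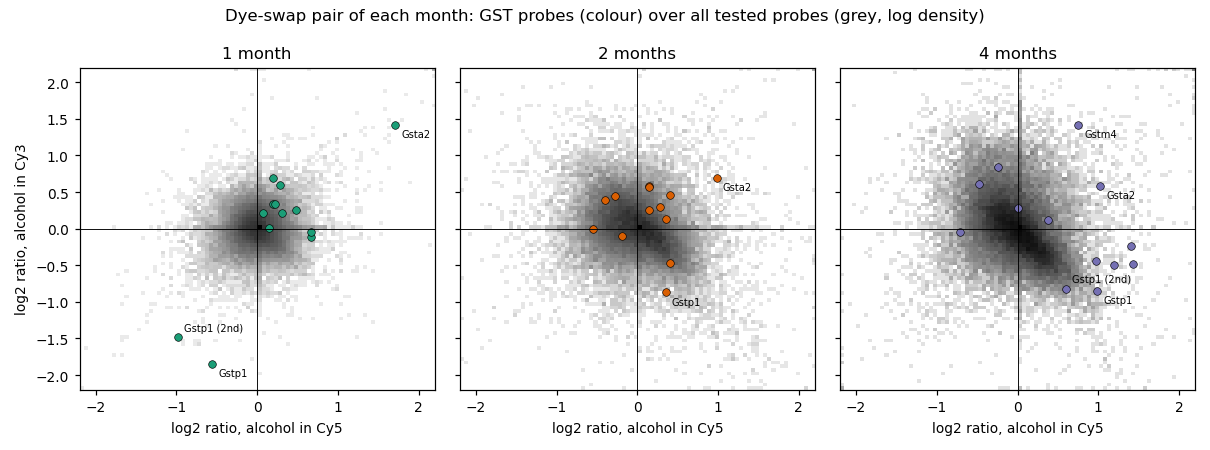
Log2 ratio of alcohol over control on the array with alcohol in Cy5 (horizontal axis) and in Cy3 (vertical axis) at each month, with the 13 probes in color over the density of all probes tested in grey (log scale, values beyond 2.2 drawn at the edge). Probes in the upper right or lower left quadrant had the same sign on both arrays; Gsta2 lies in the upper right at every month, and 8 of 13 probes lie in mixed quadrants at 4 months.

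Other transferases were measured by 14 further genes, each represented by its brightest probe. Raised were 2, 0 and 3 of them at 1, 2 and 4 months, and none was lowered, with medians of 0.07, 0.05 and 0.03 on the log2 scale. Gstt3, a theta class gene beside Gstt1, had means of 0.66, 0.35 and 1.15, and Mgst3, a microsomal transferase, had 0.86, 0.28 and 0.96. Gstm5 reached 0.60 at 4 months, and Gsta1, the close relative of Gsta2, had 0.42, 0.09 and 0.13 and was not called. Gstt3, Mgst3 and Gstm5 were above 0 on all 6 arrays.

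Of the genes that make, recycle and break down glutathione, 1 in each list was raised, in 1 month only, and 0 were lowered. Of all probes tested, 0.564%, 1.17% and 2.04% were raised at 1, 2 and 4 months. In synthesis 1 of 7 genes was raised, Cth, which forms cysteine, with 0.71 at 1 month, -0.33 at 2 months and 0.39 at 4 months. Mat1a, which makes S-adenosylmethionine, had 0.40, 0.19 and 0.03 and was not called. In breakdown 1 of 8 was raised, Ggt1 at 4 months, whose probe was well above background in only 1 of 12 channels. Among reductases and peroxidases 1 of 12 was raised, Gpx7 with 0.93 at 4 months, well above background in 7 of 12 channels.

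Among 6 transporters that export conjugates, Abcc3, a pump of the sinusoidal membrane, was raised at 4 months with means of 0.37, 0.22 and 0.65 over the 3 months. Abcg2 had -0.09, -0.16 and -0.46 and was not called. Among 9 regulators, Nfe2l2, which encodes NRF2, was lowered at 4 months, with means of -0.05, -0.39 and -0.62. These values concern its RNA.

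Of 10 genes known to respond to NRF2, 1, 1 and 2 were raised at 1, 2 and 4 months. Nqo1, a quinone reductase, was raised at every month (0.74, 0.61 and 0.79), was well above background in 10 of 12 channels, and its effect had an adjusted p of 0.407 by limma. Hmox1, which degrades heme, joined it at 4 months (0.63). The list's medians were 0.05, 0.15 and 0.10. Of 11 genes that respond to CAR and PXR, 5, 5 and 7 were raised, 7 of 11 were above 0 on all 6 arrays, and the medians were 0.48, 0.29 and 0.90. Cyp2b10, the classic CAR target, had 3.27, 2.77 and 4.03, and Cyp2b9, one of the genes whose level ran most like Gsta2, had 2.73, 1.11 and 1.87. Abcc3 belongs to this list and to the transporters. All these genes were read against the same background as the members, between 0.564% and 2.04% raised per month.

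**Figure D4:**
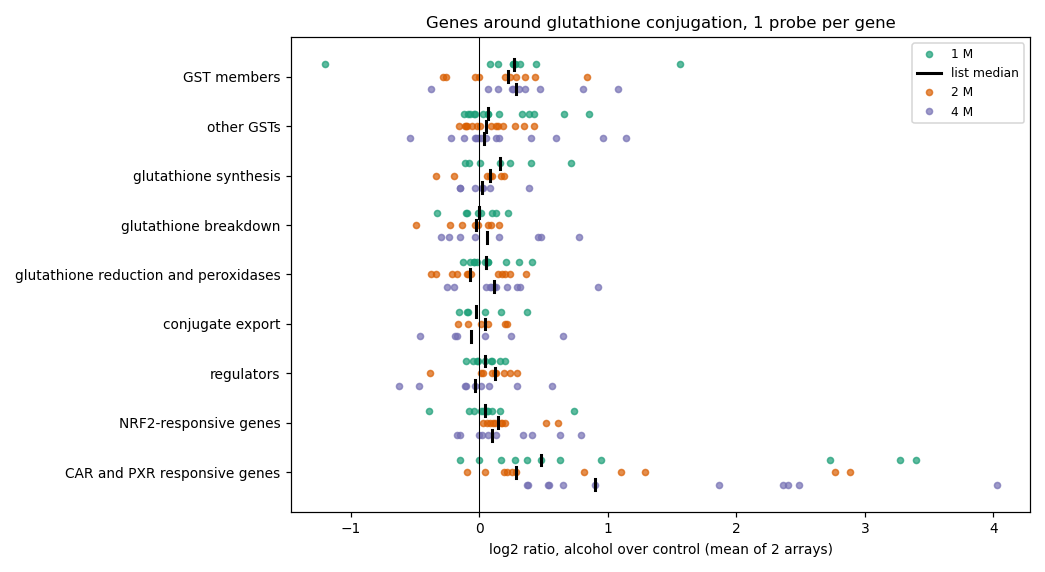
Averaged log2 ratio of alcohol over control (horizontal axis) of every tested gene of 9 lists (vertical axis) at 1, 2 and 4 months, 1 probe per gene, with black bars at the median of each list and month. The genes responding to CAR and PXR reach 4.03 (Cyp2b10 at 4 months), while the 10 transferase genes lie between -1.20 and 1.56.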

How the data were processed

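The authors deposited Feature Extraction 9.1.1.1 output of 6 two-color arrays, with processed signal intensity per channel (background-subtracted and dye-normalized) and a log10 ratio per spot. The deposited value table, a log10 ratio of alcohol over control, matched the scanner files to 0.02 on the log2 scale for 100% of single-spot probes and served as an alternative. Deposited p-values were not used.

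Log2 ratios of alcohol over control were computed from processed signals using the dyes in the labels, averaged over the spots of a probe and over each dye-swap pair. Control spots were left out. Probes that passed the scanner's background criterion in 1 or more channels of any array were tested with limma 3.58.1 in R 4.3.3, with Benjamini-Hochberg adjustment at 0.05. The tables were built with pandas 2.3.3 and numpy 2.4.6 under Python 3.11.15, and plots with matplotlib 3.10.9. The number of arrays limits precision.

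The code was tested on simulated data with 200 of 37922 probes changed by 1, 2 or 3 on the log2 scale. The effect test recovered 53.4%, 89% and 95.1% of these changes. The slope test recovered 0%, 0% and 77.6% of slopes of these sizes. Members, lists and tests were chosen with earlier results of these data known. Named were all 10 members, at most 4 genes per list (most months called, then largest mean ratio) and the 3 probes most like the member of widest range. Alternatives were normexp with loess, the value table, other filters, centring, gene means, single dyes, left-out months, slide as a block, a random month block, an unmoderated test, other thresholds, time and level scales.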

Additional observations from a re-analysis of the deposited data

Results flagged for a closer look

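Among the members and the list genes named by rule, 9 of 45 had both arrays of 1 month on one side of 0 and both arrays of another month on the other side, as did 15.9% of all probes tested and 31 of 127 genes over all lists, and none of these differences was tested. The log2 ratio of Gstm6 was above 0 on both 1-month arrays and below 0 on both arrays of the later months, and its mean differed by -0.43 at 2 months and by -0.52 at 4 months from 1 month. Chac1, which degrades glutathione, was below 0 at 1 month and above 0 later, and its mean differed by 0.48 at 2 months and 0.79 at 4 months. Nr1i2, the gene of PXR, went the same way, with differences of 0.40 at 2 months and 0.40 at 4 months. Between 1 and 2 months the mean differed by 0.91 for Aox1, 0.30 for Abcc2 and -0.43 for Cbs, and between 1 and 4 months by -0.56 for Ppara. Between 2 and 4 months it differed by 1.01 for Gpx7, whose signals were well above background in 7 of 12 channels, and by 0.71 for Ggt6. The 1-month arrays lay on another slide, so for all but Gpx7 and Ggt6 month and slide cannot be told apart.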

How the results depend on the processing

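Under every alternative run, limma called 0 of the 13 probes for the effect and for the slope. With 3 monthly values, and 1 residual degree of freedom for the slope, these counts of 0 say nothing about stability. Over all probes the effect test called 9 with normexp and loess, 6 with the stricter filter on both channels and 20 with 6 arrays, a dye term and the month as a random block (consensus correlation -0.00136), against 0, and the slope test called 50 with normexp and loess. The limma adjusted p of the Gsta2 effect ranged from 0.110 to 0.966. Leaving out a month gave effects from 0.82 to 1.20 for Gsta2 and from -0.73 to -0.095 for Gstp1, and no member changed sign.

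The arrays of a single dye orientation turned several values, the Gstp1 effect among them. With alcohol in Cy5 alone the effect was -0.086 for the second Gsta3 probe, 0.26 for Gstp1 and -0.15 for Gstt1, and the slope of Gsta3 was 0.15. With alcohol in Cy3 alone the effect was -0.34 for Gsta3, -0.022 for Gstm1 and 0.056 for Gstm6, and the slope was 0.18 for the second Gsta3 probe, -0.22 and -0.42 for the Gstm1 probes, -0.35 for Gstm3 and 0.078 for Gstt1. With month in place of its log2 the slope of Gsta3 was 0.018. The cause was not tested.

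Counts of members past 1.5-fold moved with the arrays used too. Raised at 1, 2 and 4 months were 3, 1 and 8 with Cy5 alone and 3, 2 and 4 with Cy3 alone, and lowered were 1, 0 and 1 with Cy5 alone and 2, 1 and 2 with Cy3 alone. Single arrays also called more of all probes: with Cy5 alone 1.52%, 5.10% and 5.33% were raised and 1.60%, 5.26% and 5.59% lowered, and with Cy3 alone 1.498%, 5.51% and 10.6% were raised and 1.52%, 4.63% and 7.20% lowered. At 2-fold, 0 were raised at 2 months and 1 at 4 months. With the mean over probes of a gene, 1 gene was lowered at 1 month, since the pair of Gstp1 probes then counted as 1. Of the pool levels set against another scaling, 123 moved by more than the spread of their channels and 33 did not. The 2 arrays per month, the pooling and 3 months limit what can be shown.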
